A study of Mus musculus with 768 samples.

Results

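The 9 genes described here belong to the Bcl2 family, the proteins that decide at the mitochondrial outer membrane whether a cell lives or dies. They were taken by symbol from the 24490 gene entries listed for single NK cells of MTAP1A tumors, a fibrosarcoma that came from a Tap1-deficient mouse and carries little MHC class I. The 5 survival members were Bcl2, Bcl2l1, Mcl1, Bcl2a1b and Bcl2a1d, and the 4 death members were Bcl2l11, Bid, Bax and Bak1. All 9 were among the 14761 genes with a value above 0 in at least 3 wells.

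Bax and Bak1 are the effectors that open pores in the mitochondrial outer membrane and let cytochrome c escape. Bcl2, Bcl-xL (the long product of Bcl2l1), Mcl-1 and A1 (the product of the Bcl2a1 genes) hold the effectors and their activators in check, whereas Bim (the product of Bcl2l11) and Bid belong to the BH3-only proteins that trigger pore formation. NK cells are kept alive by interleukin-15, and Mcl-1 is known as a survival factor that NK cells cannot do without. A transcript level says nothing on its own about Mcl-1 or Bim protein, both of which turn over quickly.

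WT cells came from C57BL/6 mice and PD-1-/- cells from C57BL/6, PDCD-1(PD-1)-/- mice, sex-matched and 8 to 12 weeks old, in which a deletion spanning exons 3 and 4 of Pdcd1 stops the PD-1 protein while RNA from the locus can still be made. All the mice carried MTAP1A tumors and had received no drug or antibody that the labels name. Viable NK1.1+ cells without CD3 or GR1, among other lineage markers, were sorted singly, and SMART-SEQ2, a full-length method with no molecular identifiers, was run on 768 wells, as many for one genotype as for the other, although the labels give 382 sorted cells. Each genotype was a pool of tumors from 3 mice on a plate of its own, so genotype, pool and plate cannot be told apart. There was no replicate and no test between genotypes. Intervals in parentheses are exact 95% binomial intervals and cover counting error only.

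Wells with 1000 to 3500 genes above 0 were kept, which left 726 wells, 360 of them WT and the others PD-1-/-. The median kept cell had 2265 genes above 0 in WT and 2263 in PD-1-/-, with 337718 and 366891 reads as recovered from the values. The 8 NK markers (Ncr1, Klrb1c, Klrk1, Klre1, Eomes, Tyrobp, Fcer1g and Gzma) were each present in 55.2% to 100% of cells of either genotype. The 10 T cell markers reached at most 16.9%, with Cd3d highest and Themis in 0 WT cells and 1 PD-1-/- cell, although CD3+ cells had been gated out. Myeloid, neutrophil, B cell and fibrosarcoma markers reached at most 6.39%. WT plate rows A and B stood apart: 20 of their 38 cells had Cd3d, Cd3e or Cd3g, 52.6% (35.8–69), against 45 of the other WT cells, 14% (10.4–18.2). On the PD-1-/- plate the corresponding values were 9 of 45 cells, 20% (9.58–34.6), and 74 of the others, 23.1% (18.6–28.1).

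Bcl2a1b and Bcl2a1d are near-identical copies of one ancestral gene, and how their reads were divided limits each value given for them. In GRCm38.p6 Bcl2a1b lies at chr9:89199273-89207838 on the plus strand and Bcl2a1d at chr9:88723288-88731850 on the minus strand. Their coding sequences of 519 bases differ at 6 positions and are 98.8% identical. Shown are the first 150 coding bases of each from GRCm38 with the GENCODE vM21 annotation, at chr9:89199360-89199509 for Bcl2a1b and chr9:88731570-88731719 for Bcl2a1d, within an exon. Capitals mark the 3 positions where the copies differ, which are the only places in this stretch where a read could be told apart.
Bcl2a1b: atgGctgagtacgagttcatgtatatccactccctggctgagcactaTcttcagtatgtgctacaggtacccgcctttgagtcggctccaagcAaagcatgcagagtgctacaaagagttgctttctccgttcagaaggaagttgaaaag
Bcl2a1d: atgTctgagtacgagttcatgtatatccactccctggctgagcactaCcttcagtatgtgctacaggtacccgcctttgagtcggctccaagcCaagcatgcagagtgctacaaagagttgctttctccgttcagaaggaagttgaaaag
The RefSeq promoters of the copies were as close, differing at 3 of 250 aligned bases. A search of the 300-base promoter windows of all 9 genes, from 250 bases before to 50 bases after the start, found neither the NF-kB motif nor the letters TTCNNNGAA on either strand. Of 27025 promoters, 8.18% held the former and 8.47% the latter.

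Bcl2, which binds and restrains BH3-only proteins and effectors, was the most widely detected member. It was present in 82.8% (78.5–86.5) of WT cells against 81.7% (77.3–85.5) of PD-1-/- cells. In cells with Bcl2, its level in reads scaled to transcript length and library size (RPKM) ran from 0.420 over a median of 167.6 to 1067 in WT and from 0.342 over a median of 137.98 to 723 in PD-1-/-. The ranges overlapped over nearly their whole length. The mean over all kept cells was 167.4 RPKM in WT and 141.4 RPKM in PD-1-/-, the highest mean of the 9 members in both genotypes. Bcl2 lies on chromosome 1, 12.5 Mb from the altered Pdcd1 locus (GRCm38.p6), and the part of this linkage in its values was not tested.

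Mcl1 was present in about as many cells of the 2 genotypes, 50.3% (45–55.6) of WT cells against 51.4% (46.1–56.6) of PD-1-/- cells. Its median level in cells with the transcript was 78.2 RPKM in WT, with a range of 0.749 to 418 RPKM, and 103.2 RPKM in PD-1-/-, with a range of 0.682 to 484 RPKM. The mean over all kept cells was 46.3 RPKM against 62.3 RPKM. For Mcl1 the genotypes thus differed more in mean level than in the share of cells, with overlapping ranges. With 1 RPKM added to each mean the ratio was 1.34, while 25% of 12030 genes were at least 1.5-fold apart.

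Bcl2l1 was found in fewer cells, 24.4% (20.1–29.2) of WT cells against 20.5% (16.5–25) of PD-1-/- cells. Where present, it reached a median of 147.5 RPKM in WT and 128.6 RPKM in PD-1-/-, levels near those of Bcl2. Its low mean of 39.2 and 29.2 RPKM therefore went with a low share of cells. These values do not separate the long, protective isoform of Bcl2l1 from its short, death-promoting one.

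Bcl2a1b was present in 94 WT cells, 26.1% (21.6–31), and in 34.7% (29.8–39.8) of the PD-1-/- cells. Bcl2a1d was rarer, in 36 WT cells, 10% (7.10–13.6), and in 66 PD-1-/- cells, 18% (14.2–22.4). The 2 intervals of Bcl2a1b overlapped and those of Bcl2a1d did not. For Bcl2a1d they did overlap once each cell was thinned to 100000 reads, at 10.1% (7.07–13.8) against 16.5% (12.8–20.8), among cells with no Cd3 transcript, at 8.14% (5.28–11.9) against 15.2% (11.2–19.9), and among cells with no Cxcr6, at 7.83% (5.18–11.3) against 12.8% (9.18–17.2). Without plate rows A and B the Bcl2a1d intervals were apart, at 7.76% (5.09–11.2) in WT against 18.4% (14.3–23.1) in PD-1-/-. In those rows Bcl2a1d was in 28.9% (15.4–45.9) of WT cells and 15.6% (6.49–29.5) of PD-1-/- cells. In cells with the transcript, Bcl2a1b had medians of 149.3 RPKM in WT and 162.7 RPKM in PD-1-/-, with ranges of 3.51 to 1107 and 4.23 to 700.0 RPKM. Bcl2a1d had medians of 39 and 40.5 RPKM, with ranges of 3.68 to 306.7 and 2.48 to 233.8 RPKM, and rested on few reads, a median of 10 in WT and 9 in PD-1-/- cells that had it. The difference between genotypes thus lay in how many cells had these transcripts more than in the level per positive cell.

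Bcl2l11, which encodes Bim, was the most widely detected death member in WT. It was present in 59.7% (54.5–64.8) of WT cells against 48.4% (43.1–53.6) of PD-1-/- cells, a difference of -11.4 percentage points. These intervals did not overlap. Of 7066 genes present in 10% or more of a genotype's cells, 0.566% had a share lower by 10 points or more in PD-1-/- cells, a limit chosen after the values were seen, and Bcl2l11 was the only one of the 9 members past it in either direction. In cells with Bcl2l11 the levels overlapped, from 0.325 over a median of 99.8 to 762 RPKM in WT and from 0.321 over a median of 92 to 791 RPKM in PD-1-/-. The share was lower in PD-1-/- cells in both blocks of plate rows, with a difference of -8.88 points for the upper block (A–H) and of -13.7 points for the lower block (I–P). It was also lower after each cell was thinned to 100000 reads, at 45.2% (39.9–50.5) against 58% (52.5–63.3). Reads of Bcl2l11 are equivalents of its smallest RPKM step, so this thinning may be too mild. With only values above 10 RPKM counted, the share was 38.8% against 47.5%, a difference of -8.70 points. Among cells without Cxcr6 the difference was -6.70 points, with intervals that overlapped. Both differences are short of the 10-point limit.

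Bid, which death receptor signaling turns into an activator of Bax and Bak, was present in 36.1% (31.1–41.3) of WT cells against 30.3% (25.7–35.3) of PD-1-/- cells. Its median in positive cells was the highest of the 9 members, 256.8 RPKM in WT and 256.4 RPKM in PD-1-/-. Like Bcl2l1, Bid was thus high in a minority of cells and at 0 in the rest.

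Of the effectors, Bax was present in 57.2% (51.9–62.4) of WT cells against 56.3% (51–61.4) of PD-1-/- cells. Its level in positive cells ran from 3.05 over a median of 228.8 to 1162 RPKM in WT and from 3.34 over a median of 168.7 to 814 RPKM in PD-1-/-. Bak1 was present in 41.1% (36–46.4) and 42.6% (37.5–47.9) of cells. Its values were far lower, with medians of 8.58 and 9.90 RPKM and maxima of 70.1 and 60.9 RPKM. With a median of 5 reads in WT and 7 in PD-1-/- positive cells, Bak1 was also the member whose share moved most with depth. It was found in 30% of the 120 WT cells with the fewest reads and in 51.7% of the 120 with the most, and in 35.2% and 45.9% of the corresponding PD-1-/- cells.

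**Figure D1:**
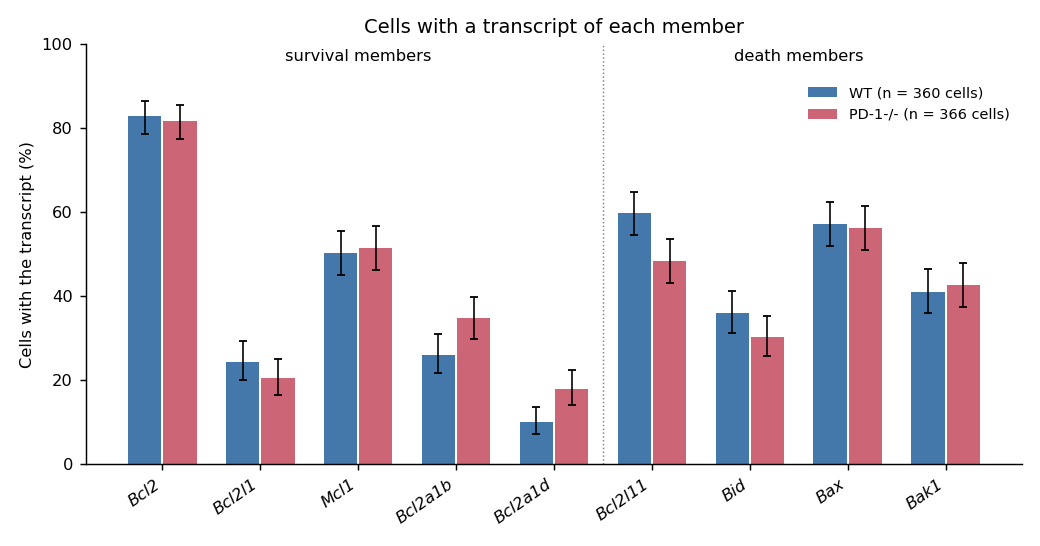
Share of kept cells (%) with a value above 0 for each of the 9 members, in WT (360 cells, blue) and PD-1-/- (red), with exact 95% intervals as error bars. Bcl2 stands highest at 82.8% and 81.7%, and the intervals of the genotypes are apart only for Bcl2a1d, where they meet after thinning to 100000 reads, and for Bcl2l11.

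**Figure D2:**
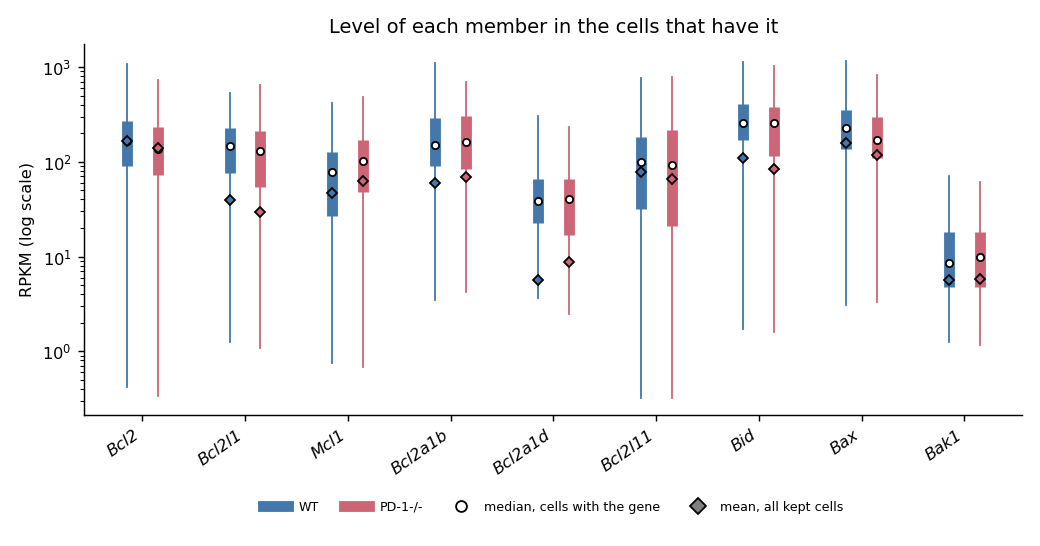
RPKM on a log axis for each member in the cells that have it (line, lowest to highest; bar, middle 50% of cells; circle, median), with the mean over all kept cells as a diamond, in WT (blue) and PD-1-/- (red). Bak1 lies lowest, with medians of 8.58 and 9.90 RPKM, and Bid highest, with medians of 256.8 and 256.4 RPKM.

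To compare the genotypes, 1 RPKM was added to each mean and the PD-1-/- value was divided by the WT value, on a log2 scale. None of the 9 members reached a ratio of 1.5-fold in either direction, while 25% of the 12030 genes that averaged 1 RPKM or more in a genotype did, 11% higher and 14% lower. Over the same genes the median log2 ratio was -0.03. The members' median was -0.23, and 4 were above 0 and 5 below. Bcl2a1d came nearest to the limit at 0.57, a ratio of 1.48. Mcl1 followed at 0.42, Bcl2a1b at 0.21 and Bak1 at 0.03. Below 0 lay Bcl2l1 and Bax at -0.41, Bid at -0.37, Bcl2 at -0.24 and Bcl2l11 at -0.23.

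Several of these ratios changed between the upper and lower blocks of plate rows. For Bcl2l1 the upper block gave a log2 ratio of 0.17 and the lower block -0.93. Bcl2a1b gave -0.06 and 0.50, and Bak1 gave 0.17 and -0.08. The sign was thus not the same in the 2 blocks for these 3 genes. Mcl1 (0.46 and 0.37), Bax (-0.49 and -0.33) and Bcl2l11 (-0.23 and -0.22) were closest between blocks. Bcl2a1d, at 0.24 and 0.93, was above the 1.5-fold limit only in the lower block, and was at 0.94 when rows A and B of both plates were left out.

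**Figure D3:**
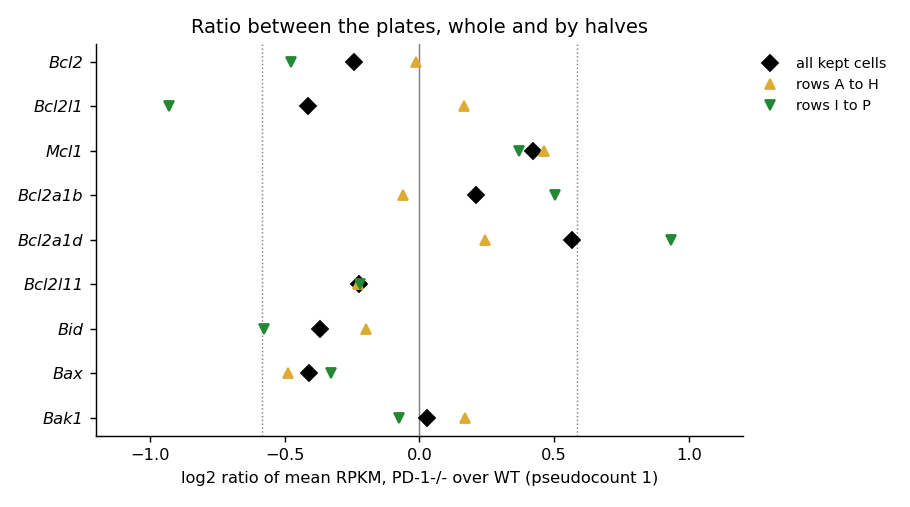
For each member, the log2 ratio of its PD-1-/- mean to its WT mean in RPKM over all kept cells (diamond), for plate rows A–H (upward triangle) and for rows I–P (downward triangle); dotted lines mark 1.5-fold. Each mean had 1 RPKM added. No diamond passes a dotted line, and Bcl2l1 has its triangles farthest apart, at 0.17 and -0.93.

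The balance of the family was followed by adding, in each cell, the RPKM of the 5 survival members and that of the 4 death members. The survival sum was above the death sum in 46.7% (41.4–52) of WT cells against 56% (50.8–61.2) of PD-1-/- cells. The median log2 ratio of survival sum to death sum, each with 1 RPKM added, was -0.12 in WT, with quartiles of -1.27 and 1.48, and 0.44 in PD-1-/-, with quartiles of -1.03 and 2.25. The distributions overlapped broadly and the 2 intervals of the shares met. The mean survival sum was 318.8 RPKM in WT and 311.6 RPKM in PD-1-/-, while the mean death sum was 350.7 and 275.3 RPKM, so the means differed mainly on the death side.

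The share with the survival sum on top was 43.3% in WT and 57.6% in PD-1-/- cells of the upper block of rows, and 50% and 54.4% in the lower block. In both blocks it was the higher in PD-1-/- cells, by less in the lower one. Without the 28 WT and 77 PD-1-/- cells that had Cxcr6 the shares were 45.2% and 52.6%.

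Bcl2 was the largest contributor to the survival side. It gave 52.5% of the summed survival RPKM in WT and 45.4% in PD-1-/-, and was the highest survival member in 59.4% (53.9–64.7) and 51.1% (45.8–56.5) of the cells that had any. Bcl2a1b was the highest in 14% (10.5–18.2) of WT cells against 20.3% (16.2–24.9) of PD-1-/- cells. On the death side Bax was the highest in 43.7% (38.3–49.3) and 42.7% (37.3–48.3), and Bak1 in 4.89% (2.82–7.82) and 6.81% (4.32–10.1).

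The median cell had 4 of the 9 members in either genotype, and the number ranged from 0 to 8. No survival member was seen in 25 WT cells, 6.94% (4.54–10.1), and in 16 PD-1-/- cells, 4.37% (2.52–7.0). No death member was seen in 33 WT cells, 9.17% (6.39–12.6), and in 43 PD-1-/- cells, 11.7% (8.63–15.5). Neither kind was seen in 4 WT and 5 PD-1-/- cells. A value of 0 in a single cell can also be a transcript that was not captured.

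**Figure D4:**
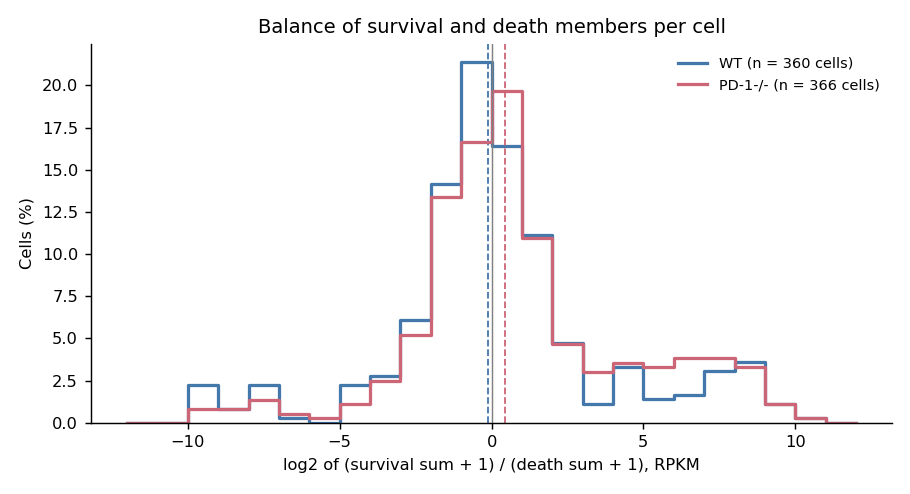
Distribution over kept cells (%) of the log2 ratio of the summed RPKM of 5 survival members to that of 4 death members, 1 RPKM added to each sum, in bins 1 log2 unit wide; dashed lines mark the medians of -0.12 in WT (blue) and 0.44 in PD-1-/- (red). The curves overlap over most of their width, with tails on both sides from cells that have only survival or only death members.

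Correlations between members from cell to cell were mostly weak. Since a 0 can be a transcript that was not captured, weak values do not show that members vary independently. Of the 36 pairs, 35 had a Spearman correlation between -0.2 and 0.2 in each genotype, over the kept cells, whose values share plate and depth. The exception was Bcl2a1b with Bcl2a1d, at 0.34 in WT and 0.36 in PD-1-/-. Both were present in 24 WT cells, where the product of their shares gives 9.40, and in 49 PD-1-/- cells, where it gives 22.9. Reads shared between these copies could give the same pattern, and their part was not tested.

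In the cells with both copies, the ratio of Bcl2a1d to Bcl2a1b was not fixed. Its quartiles were 0.0993, 0.169 and 0.291 in WT and 0.115, 0.232 and 0.507 in PD-1-/-, with a range of 0.00524 to 5.28 and of 0.0143 to 12. Bcl2a1d was the higher of the copies in 3 of the 24 WT cells and in 7 of the 49 PD-1-/- cells. It was found without Bcl2a1b in a further 12 WT and 17 PD-1-/- cells. With all 4 listed copies, Bcl2a1a to Bcl2a1d, taken as a single gene, 30.3% of the WT and 41.8% of the PD-1-/- cells had it.

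Among 3748 genes present in 20% or more of each genotype's cells, the genes whose values ran most like those of a member were ranked by the smaller of their Spearman correlations in the 2 genotypes. For Bcl2a1b the first was Xcl1, a chemokine gene of activated NK cells, at 0.32 in WT and 0.26 in PD-1-/-, followed by B2m and Slamf7. Bcl2a1d came closest to Bcl2a1b itself, then to Xcl1 (0.24 and 0.24) and to Il27ra (0.22 and 0.28). Bcl2l11 came closest to Vps37b (0.26 and 0.27), Stat3 (0.22 and 0.21) and Tnfaip3 (0.19 and 0.21), the last an inhibitor of NF-kB signaling. The genes nearest to the other 6 members stayed under 0.2 in both genotypes: Pim2, Gem and Rpl14-ps1 for Bcl2, Ppp1r10, Bnip2 and Ppp5c for Bcl2l1, Ddx47, Gramd4 and Hnrnpf for Mcl1, Flot1, Eif1a and Eri1 for Bid, Rps26, Rps4x and Rps3 for Bax, and Pkm, Nono and Actb for Bak1. These are descriptions over sparse values, and those under 0.2 are no finding.

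The correlation with Xcl1 can also be put as shares, a look added after it was known. It uses the same cells and values, so it adds no support. How many of all genes differ by this split was not counted. Bcl2a1b was present in 84 WT cells with Xcl1, 30.2% (24.9–36) of them, and in 10 of 82 without, 12.2% (6.01–21.3). In PD-1-/- cells the shares were 39.1% (33–45.3) and 24.5% (16.8–33.7). Cells with Xcl1 had more genes above 0, a median of 2289 against 2156 in WT and 2370 against 1953 in PD-1-/-, and the part of this difference was not tested.

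The cells were then split on 8 transcripts or lists, and the share of cells with each member was compared within a genotype, which keeps plate and pool constant. Cxcr6 encodes a chemokine receptor and Itga1 the integrin CD49a, both known from tissue-resident lymphocytes. In WT, 2 of the 9 members were at least 10 points higher and 1 at least 10 points lower in the 28 cells with Cxcr6 than in those without, and 16.7% of 7854 genes were higher and 7.51% lower by that measure. In PD-1-/-, 2 were higher and 2 lower in the 77 cells with Cxcr6 than in those without, where 6.32% of 7371 genes were higher and 3.05% lower.

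Bcl2a1d was found in a larger share of the cells with Cxcr6 in both genotypes, and Bcl2a1b clearly so only in PD-1-/- cells. The copies may share reads, so their differences need not be independent of each other. Bcl2a1d was present in 10 of 28 WT cells with Cxcr6, 35.7% (18.6–55.9), and in 26 without, 7.83% (5.18–11.3) of these. In PD-1-/- it was present in 29 of 77, 37.7% (26.9–49.4), and in 37 of the others, 12.8% (9.18–17.2). The intervals were apart in both genotypes. Bcl2a1b was present in 58.4% (46.6–69.6) of PD-1-/- cells with Cxcr6 and in 28.4% (23.2–33.9) of those without. In WT its shares were 39.3% (21.5–59.4) and 25% (20.4–30), with intervals that overlapped. That difference of 14.3 points is not unusual there, since 16.7% of 7854 genes were higher by at least 10 points.

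Bcl2l11 went the other way in PD-1-/- cells. It was present in 24 of 77 cells with Cxcr6, 31.2% (21.1–42.7), and in 52.9% (47–58.8) of those without. Among WT cells the shares were 60.7% (40.6–78.5) and 59.6% (54.1–65), and whether the 2 genotypes differ in this was not tested. Bcl2 was present in 70.1% (58.6–80) of PD-1-/- cells with Cxcr6 and 84.8% (80.1–88.7) of those without, against 78.6% (59–91.7) and 83.1% (78.7–87) in WT. The remaining member past 10 points was Bid in WT, at 25% (10.7–44.9) with Cxcr6 and 37% (31.8–42.5) without. Among cells without Cxcr6, Bcl2l11 was 6.70 points lower in PD-1-/- than in WT, at 52.9% (47–58.8) against 59.6% (54.1–65), with intervals that overlapped.

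Cd3 transcripts moved with Cxcr6: Cd3d, Cd3e or Cd3g was in 64.3% (44.1–81.4) of WT cells with Cxcr6 against 14.2% (10.6–18.4) of the others, and for PD-1-/- these shares were 42.9% (31.6–54.6) and 17.3% (13.1–22.2). Of the 28 WT cells with Cxcr6, 14 lay in plate rows A and B. Without the cells that had Cd3 transcripts, Bcl2a1d was still higher with Cxcr6, by 33 points in WT, where only 10 cells with Cxcr6 were left, and by 22.4 points in PD-1-/-. Without rows A and B the differences were 29.2 and 25.2 points. For Bcl2l11 in PD-1-/- cells the difference was -18 points without the cells with Cd3 transcripts and -25.6 points without rows A and B. For Bcl2a1b in PD-1-/- cells it was 26.7 and 29.95 points. These differences of Bcl2a1d, Bcl2a1b and Bcl2l11 were thus also seen among cells with no Cd3 transcript. After thinning to 100000 reads, Bcl2a1d was in 32.9% (22.5–44.6) of PD-1-/- cells with Cxcr6 and 12% (8.37–16.4) of the others, and Bcl2l11 in 27.6% (18–39.1) and 50% (43.9–56.1).

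Among the members, splitting on Itga1 gave a like picture for Bcl2a1d in both genotypes, and for Bcl2a1b and Bcl2l11 in PD-1-/- cells. Of the 9, only Bcl2a1d was at least 10 points apart in WT, at 31.3% (18.7–46.3) of 48 cells with Itga1 and 6.73% (4.21–10.1) of those without, while 20.4% of 7588 genes were that much higher and 1.4% lower. In PD-1-/- cells, where 7.29% of 7393 genes were higher and 1.6% lower, 3 members passed 10 points. Bcl2a1d was in 36.7% (26.8–47.5) of 90 cells with Itga1 and 12% (8.37–16.4) of those without. Bcl2a1b was in 54.4% (43.6–65) and 28.3% (23–34). Bcl2l11 was in 35.6% (25.7–46.3) and 52.5% (46.5–58.6). A cell can have both Cxcr6 and Itga1, so the splits need not be independent of each other. Cells with Itga1 had more genes above 0, a median of 2595.5 against 2244 in WT and 2404 against 2197 in PD-1-/-. The part of this difference was not tested.

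Cells with Cd3 transcripts had A1 transcripts more often as well, with intervals apart only for Bcl2a1b in PD-1-/- cells. Bcl2a1b was in 25 of 65 WT cells with Cd3d, Cd3e or Cd3g, 38.5% (26.7–51.4), and in 69 without, 23.4% (18.7–28.6) of these. In PD-1-/- it was in 43 of 83, 51.8% (40.6–62.9), and in 84 of the others, 29.7% (24.4–35.4). Bcl2a1d was in 18.5% (9.92–30) and 8.14% (5.28–11.9) of these WT cells and in 27.7% (18.4–38.6) and 15.2% (11.2–19.9) of these PD-1-/- cells. Of the cells with Cd3 transcripts, 18 in WT and 33 in PD-1-/- also had Cxcr6, and the part of this was not tested. Of the other 7 members only Bak1 in WT passed 10 points, at 32.3% (21.2–45.1) with and 43.1% (37.3–48.9) without. This difference of -10.7 points was -1.10 points without plate rows A and B and -1.17 points after thinning, and it was above 0 in rows I to P and at a limit of 10 RPKM. The Bcl2a1d differences of 10.3 points in WT and 12.5 in PD-1-/- were 8.67 and 7.46 after thinning. The genes higher by 10 points with Cd3 transcripts were 6.81% of 7359 in WT and 4.32% of 7192 in PD-1-/-, and those lower were 3.76% and 2.78%.

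**Figure D5:**
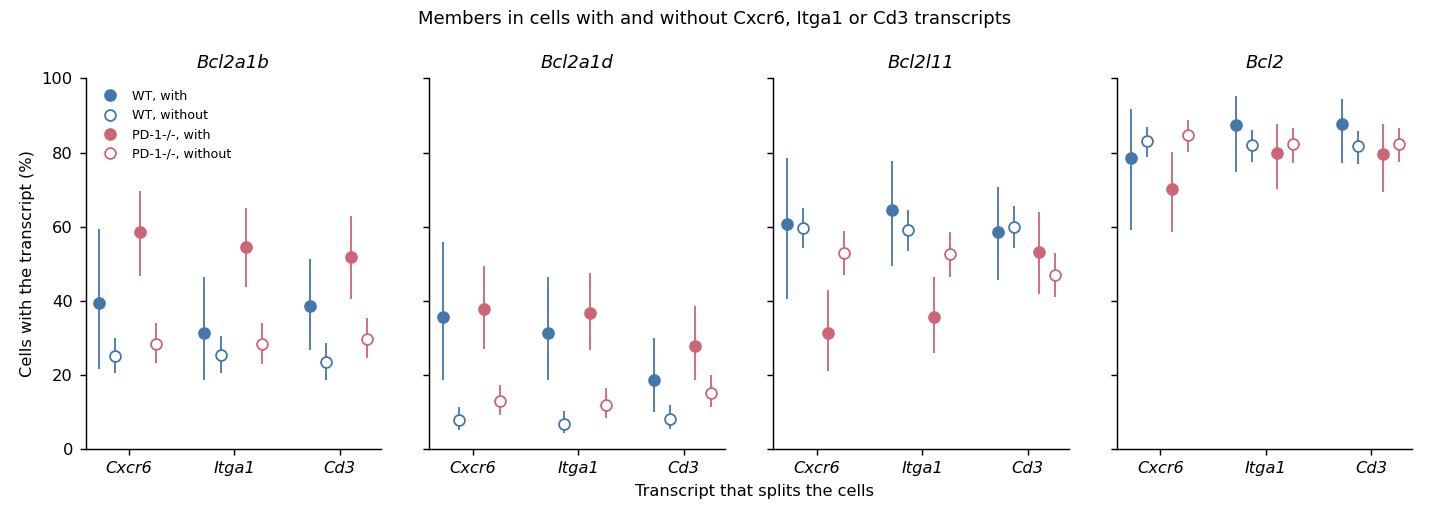
Share of kept cells (%) with Bcl2a1b, Bcl2a1d, Bcl2l11 or Bcl2 among cells with (filled) and without (open) Cxcr6, Itga1 or any of Cd3d, Cd3e and Cd3g, in WT (blue) and PD-1-/- (red), with exact 95% intervals. Bcl2a1d is higher in the filled points of every split, from 7.83% to 35.7% for Cxcr6 in WT, and Bcl2l11 is lower with Cxcr6 and with Itga1 in PD-1-/- only.

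With Gzmb, which encodes the killing protease granzyme B, the picture was different. In WT 4 members were at least 10 points higher in cells with Gzmb than in the 65 without and none was that much lower, where 12.9% of 7133 genes were higher and 1.95% lower. Bcl2 was in 85.8% (81.2–89.5) against 69.2% (56.6–80.1), with intervals apart. After thinning to 100000 reads these shares were 85.7% (81.1–89.6) and 72.4% (59.1–83.3), with intervals that overlapped. The other 3 were Bcl2l1, at 27.1% (22.1–32.6) against 12.3% (5.47–22.8), Bid, at 39% (33.4–44.8) against 23.1% (13.5–35.2), and Bak1, at 44.1% (38.3–49.9) against 27.7% (17.3–40.2). In PD-1-/- cells, where 9.03% of 7375 genes were higher and 3.84% lower, only Bid passed 10 points, at 31.9% (26.8–37.3) of cells with Gzmb against 20.4% (10.2–34.3) of the 49 without. Cells with Gzmb had more reads, a median of 343705 against 319134 in WT and 373501 against 331340 in PD-1-/-. After thinning, Bak1 in WT stood at 35.4% (29.8–41.3) against 25.9% (15.3–39).

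Il7r, the interleukin-7 receptor chain, marked 35 WT and 30 PD-1-/- cells. In PD-1-/- cells with Il7r, Bax was present in 33.3% (17.3–52.8) against 58.3% (52.9–63.7) without, and Bcl2 in 63.3% (43.9–80.1) against 83.3% (78.9–87.2). Bak1, at 26.7% (12.3–45.9) against 44% (38.7–49.5), was the third member lower there, and 14.7% of 7615 genes were lower by 10 points. Bcl2a1b was higher, at 56.7% (37.4–74.5) against 32.7% (27.7–38), in a comparison where 6.79% of genes were. In WT the Il7r cells had Bcl2l1 in 11.4% (3.20–26.7) against 25.8% (21.2–31) and Bid in 25.7% (12.5–43.3) against 37.2% (32–42.7), while both A1 genes were higher by 12.2 and 11.1 points; 13.3% of 7416 genes were higher and 6.35% lower. The PD-1-/- cells with Il7r were shallower, with a median of 304367 against 370631 reads.

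Few cells had Pdcd1, 9 in WT and 47 in PD-1-/-. Of the 47 PD-1-/- cells, 59.6% (44.3–73.6) had Bcl2a1b and 31.9% (19.1–47.1) had Bcl2a1d, against 31% (26–36.4) and 16% (12.1–20.5) of the others. In that comparison 13.9% of 7532 genes were higher by 10 points and 2.71% lower. Bax was the member that was lower, at 46.8% (32.1–61.9) against 57.7% (52.1–63.2). Of the 9 WT cells, 4 had Bcl2a1b and 4 had Bcl2a1d, too few to set against the rest, where 42.9% of 10023 genes were higher and 11% lower by the same limit. Klrg1, a marker of mature NK cells, split the PD-1-/- cells with 0 of the 9 members past 10 points in either direction, where 3.37% of 7093 genes were higher and 3.96% lower. In WT, Bak1 was in 53.6% (39.7–67) of the 56 cells with Klrg1 and 38.8% (33.3–44.5) of the others, and Bid in 26.8% (15.8–40.3) and 37.8% (32.4–43.5), where 11.9% of 7307 genes were higher and 1.46% lower.

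Cells with at least 2 of Mki67, Top2a, Birc5, Ccna2 and Cdk1 were taken as cycling, which left 12 WT and 22 PD-1-/- cells. With so few cells, 42.1% of 8289 genes in WT and 25% of 7540 genes in PD-1-/- were at least 10 points higher, 13.9% and 7.18% were as much lower, and 3 members were higher in each genotype. Bcl2, Bcl2l11 and Bak1 were at least 10 points lower in the cycling WT cells, and Bid in the cycling PD-1-/- cells. Bcl2l1 was in 9 of the 22 PD-1-/- cycling cells, 40.9% (20.7–63.6), and in 19.2% (15.2–23.8) of the rest. Bax was higher in both genotypes, at 75% (42.8–94.5) against 56.6% (51.2–61.9) in WT and 68.2% (45.1–86.1) against 55.5% (50.1–60.9) in PD-1-/-, with intervals that overlapped.

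Depth bore on some of these splits. Over the 8 splits and both genotypes, 47 differences were at least 10 points, and 35 still were, in the same direction, after each cell was thinned to 100000 reads. The 12 that were not included Bcl2a1d with Pdcd1 in PD-1-/- (7.99 points) and with Il7r in WT (8.44 points), Bid with Cxcr6 in WT (-7.14 points), and Bak1 with Klrg1 (9.66 points) and with Gzmb (9.50 points) in WT. Bak1 in cycling WT cells went from -16.7 to 9.32 points, with 7 cycling cells left.

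Among 17 other Bcl2 family genes, 13 had a mean of at least 1 RPKM in a genotype. Of these, 4 were at least 1.5-fold higher and 2 at least 1.5-fold lower in PD-1-/- cells. Over 12030 genes 11% were that much higher and 14% lower. All 6 of these family genes were sparse. Bcl2a1c, the shortest listed A1 copy, was in 27 WT and 46 PD-1-/- cells and had a log2 ratio of 0.63. Pmaip1, which encodes the BH3-only protein Noxa, was in 6 and 8 cells at 0.69, Bmf in 3 and 6 cells at 0.62, and Bik in 2 and 6 cells at 1.65. Bok was in 2 WT cells and in no PD-1-/- cell, and Bcl2l15 was in 4 and 2 cells at -0.99. Counts this small give these ratios no weight.

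The most widely detected of these 17 genes was Bnip3l, a receptor for the removal of mitochondria, in 41.7% (36.5–46.9) of WT cells against 47% (41.8–52.3) of PD-1-/- cells. Bad, a BH3-only gene, was in 15% (11.5–19.1) and 20.8% (16.7–25.3). Bcl2l13 was in 18.6% (14.7–23) and 20.2% (16.2–24.7), Bbc3 (Puma) in 15.8% (12.2–20) and 17.8% (14–22.1), and Bcl2l12 in 13.6% (10.2–17.6) and 11.5% (8.40–15.2). Their intervals overlapped between genotypes for each gene.

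Of 16 further genes of the apoptosis pathway, outside the Bcl2 family, 16 could be compared, and 1 was higher and 1 lower by 1.5-fold. Over 12030 genes 11% were higher and 14% lower by that fold, so these counts do not stand out. Htra2, a mitochondrial protease that antagonizes inhibitors of apoptosis, was in 22 WT cells, 6.11% (3.87–9.11), and in 43 PD-1-/- cells, 11.7% (8.63–15.5), with a log2 ratio of 1.01. Cycs, which encodes cytochrome c, had means of 1.57 and 0.599 RPKM, a log2 ratio of -0.68, with values in 14.2% (10.7–18.2) and 12% (8.87–15.8) of cells. Vdac2, a channel of the outer membrane, was in 55% (49.7–60.2) and 50.3% (45–55.5). Casp8, the initiator caspase of death receptors that cleaves Bid, was in 51.7% (46.4–56.9) and 51.4% (46.1–56.6). Birc3, an inhibitor of apoptosis, was in 32.5% (27.7–37.6) and 27.05% (22.6–31.9), and Diablo, which antagonizes such inhibitors, in 25.3% (20.9–30.1) and 28.96% (24.4–33.9).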

How the data were processed

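The deposited files hold RPKM per gene and well, 1 table per plate, which the authors made from SMART-SEQ2 reads. The submitters' processing notes name TopHat, Cufflinks, mm9 and mm10 without saying which made these values, so the build behind them is not settled, and positions are from RefSeq and GENCODE on GRCm38. The annotation matched all 9 members. Groups were taken from the genotype labels. Wells with 1000 to 3500 genes above 0 were kept, counting genes above 0 in at least 3 wells. Whole reads were recovered from equal RPKM steps for 9837 genes; 99.6% of 676012 values under 60 reads were whole within 0.0003 of their size. Bcl2, Bcl2l1 and Bcl2l11 had several step sizes, so their reads, used only for thinning (seed 42), are equivalents of the smallest step. These can overstate the reads, so thinning may be too mild for these genes. Shallower cells, 22 WT and 14 PD-1-/-, were left out when thinned. No count model was run, since each genotype is 1 pool. A share is the percent of cells with a value above 0, with a Clopper-Pearson interval. No doublet caller was run on these sorted wells, and the authors' filter on apoptosis genes was not applied, since its genes are not given in the sources used here. The scripts (Python 3.11.15, numpy 2.4.6, pandas 2.3.3, scipy 1.17.1) were tested on simulated data. The text names all 9 members, the 3 genes most like each, the 5 most widely detected genes of each other list and those past 1.5-fold; 1 gene that this names is not reported here. The members and lists were chosen with earlier results of these data known. Alternatives changed the cells, rows, threshold, scaling, depth, pseudocount, fold and members. Leaving out cells with Cxcr6, and the Cxcr6 and Itga1 splits without cells with Cd3 transcripts or without rows A and B, were added after the data were seen.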

Additional observations from a re-analysis of the deposited data

Results flagged for a closer look

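The 30 wells with more than 3500 genes above 0 entered no main comparison. They held all 9 members in shares above 10%, an approximate limit of 3 in 30 wells. Wells picked for many genes are more likely to hold any given gene, so passing this limit is no finding about the members. Bcl2 was in 83.3% (65.3–94.4) of these wells, Bcl2l1 in 33.3% (17.3–52.8), Mcl1 in 70% (50.6–85.3), Bcl2a1b in 70% (50.6–85.3), Bcl2a1d in 43.3% (25.5–62.6), Bcl2l11 in 63.3% (43.9–80.1), Bid in 60% (40.6–77.3), Bax in 83.3% (65.3–94.4) and Bak1 in 66.7% (47.2–82.7). The intervals of Bcl2a1b, Bcl2a1d and Bax lay above those of the kept cells of both genotypes. How many of all genes did so was not counted. The 12 wells with fewer than 1000 genes had 5 members in 0 wells, namely Bcl2l1, Bcl2a1b, Bcl2a1d, Bax and Bak1, with exact intervals that reach 26.5%. The other 4 were in 1 or 2 of these wells each.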

How the results depend on the processing

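The alternatives gave 591 values, of which 556 stayed within the error of the reported value, 33 moved and 2 reversed; the error was the 95% interval of a share or difference, 1.5-fold for a ratio, the quartiles for a median balance and 1.5 times for a count. Of the differences and log2 ratios, 41 changed sign, and 39 of these had not passed 10 points or 1.5-fold as reported. With 0 members past 1.5-fold in either direction as reported, 1 was higher and 1 lower in rows I to P (Bcl2a1d and Bcl2l1) and with the mean of log2 values per cell (Bcl2a1b and Bcl2l11), and 1 was higher, Bcl2a1d, without rows A and B, after thinning and with a pseudocount of 0.1. The share of cells with the survival sum above the death sum, 46.7% in WT and 56% in PD-1-/-, became 39.7% and 46.2% without Bcl2a1b and Bcl2a1d, 40.3% and 49.5% without Mcl1, and 25.3% and 36.1% without Bcl2; a sum with fewer members is smaller by construction, and the share was higher in PD-1-/- cells each time. The 2 reversed values were those of Bak1 in WT cells with Cd3 transcripts against those without, 2.89 points above 10 RPKM and 2.96 points in rows I to P, against -10.7 points as reported, and the cause was not tested. No paired analysis was possible because the replicate numbers only number the wells of 2 separate plates. Leaving out a replicate was not possible either, with 1 pool per genotype. Bak1, a transcript at a few reads, was limited by depth: thinned to 100000 reads, Bak1 was in 33.7% and 35.2% of cells in place of 41.1% and 42.6%. Bcl2a1d, also at a few reads, changed less on thinning, from 10% to 10.1% for WT and from 18% to 16.5% for PD-1-/-. Between the WT cells with the fewest and the most reads (120 each) its share rose from 7.50% to 12.5%. Between the corresponding PD-1-/- cells it rose from 12.3% to 18.9%.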
